A study of Mus musculus with 6 samples.

Results

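The genes described here are 10 immediate early genes of the mouse: Egr1, Egr2, Egr3, Arc, Nr4a1, Nr4a2, Nr4a3, Ier2, Ier3 and Srf. They were picked from a fixed list of symbols matched to Entrez gene identifiers, and all 10 were found among the 36528 identifiers listed and among the 15132 genes tested. RNA was sequenced from cells sorted from skin as positive for CD49f and CD34 and negative for GFP, the surface profile of hair follicle bulge stem cells. All 6 libraries came from Lgr5-DTReGFP mice, in which the diphtheria toxin receptor and a green fluorescent reporter are carried at Lgr5. Mice given saline gave 3 libraries and mice given diphtheria toxin (DT) gave 3. Both groups carried the receptor, so DT was not studied in mice that lack it. Lgr5, the targeted gene, was at 24.0 ± 7.20 CPM (read counts scaled by library size and edgeR's TMM factors) in saline and 7.11 ± 0.143 CPM in DT (SD, n = 3). The labels used here give neither the age of the mice nor the dose of DT nor the time from DT to collection. They also leave unsaid if each library is a separate animal, and the spread between libraries may thus be technical.

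Immediate early genes are switched on within minutes of a signal, without new protein synthesis, and their mRNAs are short-lived. In epidermis growth factors, cytokines, wounding and also the handling of cells can switch them on. Signals through the ERK kinases reach ELK proteins bound beside serum response factor (SRF), and signals through cyclic AMP reach CREB. The EGR proteins are zinc finger transcription factors, the NR4A proteins are orphan nuclear receptors, and Arc is a cytoplasmic protein best known from neurons, where it acts in receptor endocytosis.

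RefSeq promoter windows of GRCm38.p6, each with 250 bases before and 50 bases after a start site, were available for 6 of the members. They are shown because the members are known for control by SRF and by each other. Windows were searched on both strands for the CArG box, which SRF binds, for the EGR site GCGNGGGCG, for the cyclic AMP element TGACGTCA and for the NR4A element AAAGGTCA. A CArG box was found in 2 of the 6 members, Egr2 and Srf, and an EGR site in 3, Nr4a1, Nr4a2 and Srf. The cyclic AMP and NR4A elements were found in 0 of them in these letters. Of all 32851 windows of this length, 1.63% held a CArG box, 5.55% the EGR site, 1.79% the cyclic AMP element and 1.51% the NR4A element. The units differ: these shares are of windows, while a member was counted if any of its windows, 10 in all, held a match. These matches describe letters and do not show binding. In the sequences below, written 5′ to 3′ along the gene's strand, capitals mark CArG boxes and EGR sites. The first bases of the CArG boxes stood at -72 in Egr2 and at -82 and -62 in Srf. The EGR site began at -101 in Srf and at -60 in Nr4a1, where it reads on the opposite strand.
Egr2, chr10:67537619-67537918, plus strand: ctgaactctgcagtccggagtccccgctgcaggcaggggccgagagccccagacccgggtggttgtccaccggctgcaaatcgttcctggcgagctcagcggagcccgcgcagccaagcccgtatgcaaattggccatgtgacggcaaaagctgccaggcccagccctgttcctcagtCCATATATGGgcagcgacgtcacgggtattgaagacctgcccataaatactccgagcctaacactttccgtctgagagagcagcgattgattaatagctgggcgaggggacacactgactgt
Srf, chr17:46556113-46556412, minus strand: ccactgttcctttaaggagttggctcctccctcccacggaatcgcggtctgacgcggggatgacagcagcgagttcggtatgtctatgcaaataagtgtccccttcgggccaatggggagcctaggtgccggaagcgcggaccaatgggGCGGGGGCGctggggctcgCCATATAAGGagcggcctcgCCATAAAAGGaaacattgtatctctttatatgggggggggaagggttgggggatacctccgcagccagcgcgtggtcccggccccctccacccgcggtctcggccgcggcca
Nr4a1, chr15:101266596-101266895, plus strand: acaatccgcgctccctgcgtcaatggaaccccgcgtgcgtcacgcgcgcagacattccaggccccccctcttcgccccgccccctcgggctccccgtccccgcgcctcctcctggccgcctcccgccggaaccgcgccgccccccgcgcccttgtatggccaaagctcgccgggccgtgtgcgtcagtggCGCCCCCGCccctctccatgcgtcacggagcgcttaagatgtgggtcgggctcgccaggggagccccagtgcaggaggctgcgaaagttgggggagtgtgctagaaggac
Egr2 had 5 windows for its several start sites, and 4 of them held a CArG box, of which 3 overlap and share the same box.

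Of the 10 members, 6 were higher and 0 lower in the DT libraries by the fit across all genes described under processing. Arc, Egr1 and Nr4a3 had the greatest fitted changes, Egr2, Nr4a1 and Ier2 smaller ones, and Egr3, Nr4a2, Ier3 and Srf did not pass. The members were listed with results of this same contrast known, so these calls and values describe them and test nothing. Over all genes tested 17.2% were higher in DT, 11.9% lower and 29.0% called in either direction. The median log2 fold change was 1.24 over the 10 members and -0.01 over all genes tested. At an unadjusted p under 0.05, 0 members were lower in edgeR, and 0 were lower in DESeq2 or limma-voom after adjustment. All DT libraries lay above all saline libraries for 7 members, which was so for 25.4% of all genes tested. For Nr4a1 and Ier2 that separation was thin, at 1.01 and 1.07 times between the lowest DT and the highest saline library. In bulk samples fewer cells of a type and less RNA per cell cannot be told apart.

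**Figure D1:**
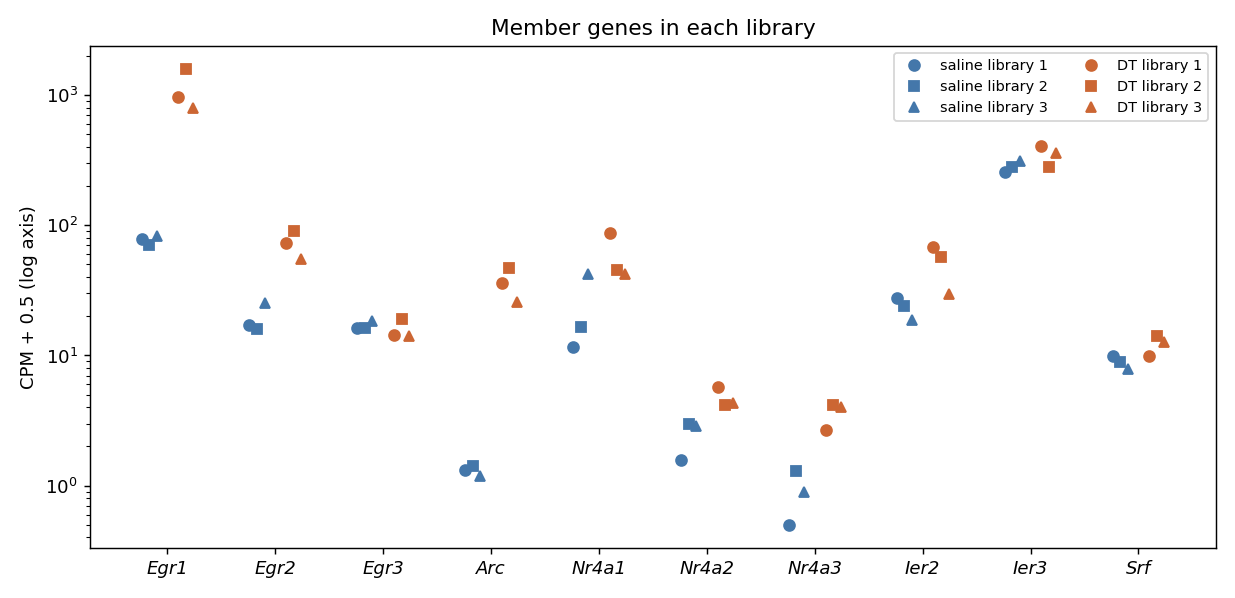
Level of each of the 10 members in each library, as CPM + 0.5 on a log axis, with saline libraries in blue and DT libraries in orange and a marker shape for each library number. Arc and Egr1 have clear gaps between the groups, while the groups overlap for Egr3, Ier3 and Srf.

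Egr1 (Entrez 13653, chromosome 18 from 34861207 to 34864956 in GRCm38), a transcription factor of growth and wound responses, stood at 77.5, 69.9 and 82.4 CPM in saline libraries 1 to 3. It stood at 972, 1593 and 791 CPM in DT libraries 1 to 3. Every DT library was above every saline library, by at least 9.60 times, and DT library 2 was the highest. The mean went from 76.6 ± 6.28 to 1119 ± 421 CPM (SD, n = 3), a fitted log2 fold change of 3.87 (SE 0.25). Ranked per length by the deposited RPKM, Egr1 was between the 2634th and 3003rd gene in the saline libraries and between the 90th and 204th in the DT libraries.

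Egr2 (Entrez 13654, chromosome 10 from 67534469 to 67542188), known as Krox20 and needed for Schwann cell myelination, was at 16.7, 15.4 and 24.6 CPM in saline. In DT it was at 72.7, 89.2 and 55.0 CPM. The groups did not overlap, and their means of 18.9 ± 4.99 and 72.3 ± 17.1 CPM gave a fitted log2 fold change of 1.93 (SE 0.23).

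Egr3 (Entrez 13655, chromosome 14 from 70077317 to 70082613), a close relative of Egr1 and Egr2 with the same kind of zinc fingers, was at 15.7, 15.8 and 17.8 CPM in saline. In DT it was at 13.8, 18.7 and 13.5 CPM. The groups overlapped, and the fitted log2 fold change was -0.10 (SE 0.20). In the same libraries the ratio of Egr1 to Egr3 in RPKM was 5.94 to 6.63 in saline and 78.9 to 114 in DT.

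Egr4, the remaining member of the family and not on the list, had 1, 2 and 0 reads in the saline libraries and 148, 131 and 79 in the DT libraries. The ratio of its summed levels was 134, with an exact 95% interval of 45.5 to 653 that covers counting error only (edgeR adjusted p = 0.000173). Egr4 passed the filter for low counts through its DT reads alone, so that its direction was fixed in advance and the p-value is no test of it. Summed over the 4 genes the family was at 31.8 ± 3.34 RPKM in saline and 368 ± 141 RPKM in DT. Egr1 made up 73.8% ± 2.08 of that sum in saline and 93.3% ± 0.843 in DT. The share of Egr2 was 14.3% ± 2.31 and 4.94% ± 0.674, and that of Egr3 11.8% ± 0.621 and 0.994% ± 0.178 (SD, n = 3).

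**Figure D2:**
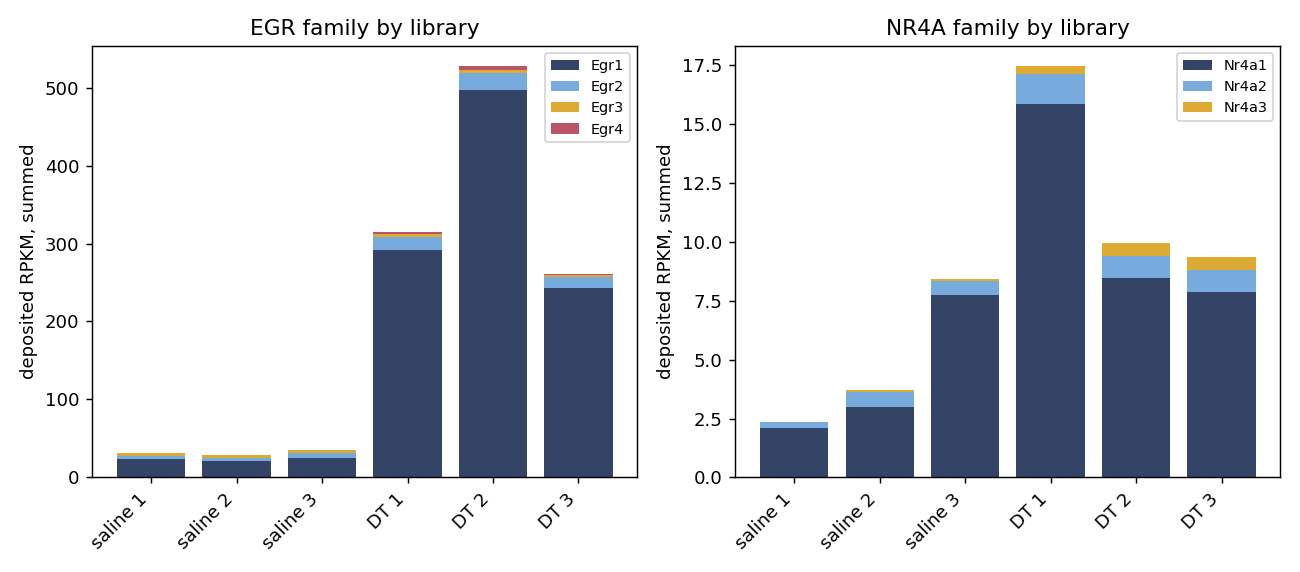
Deposited RPKM of the EGR genes (left) and the NR4A genes (right) in each library, stacked by gene, on linear axes with different scales. Egr1 fills most of every EGR bar, at 93.3% of the sum in DT, and Nr4a1 fills most of every NR4A bar, with saline library 3 near DT libraries 2 and 3.

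Arc (Entrez 11838, chromosome 15 from 74669081 to 74672570) had only 20, 20 and 16 reads in the saline libraries, or 0.829, 0.925 and 0.695 CPM. It had 757, 696 and 630 reads in the DT libraries, or 35.5, 46.7 and 25.1 CPM. The lowest DT library was 27.2 times the highest saline library, the widest gap among the members. The fitted log2 fold change was 5.44 (SE 0.31), and the ratio of summed levels was 41.8, with an exact 95% interval of 32.0 to 55.5 for counting error. Of the neuron markers, Snap25 had 0 reads in every library, and all 6 summed to 6.84 to 9.34 CPM in saline and 6.78 to 7.46 CPM in DT. Most of that sum was Map2, at 6.40 ± 1.52 and 5.69 ± 1.08 CPM. Rbfox3 had 0 reads in every saline library and 7, 10 and 4 in DT, and Tubb3 had 0, 0 and 8 in saline and 3, 12 and 11 in DT. Stmn2 went the other way, with 15, 13 and 18 reads in saline and 0, 1 and 13 in DT. Its fitted log2 fold change of -1.64 did not pass (edgeR adjusted p = 0.221). Of the 3 neuron markers tested 0 were higher, against 17.2% of all genes tested, and 1 marker was higher with no filter. The part of neurons in the change of Arc was not tested. Of 5 partners of Arc in endocytosis and at synapses, 3 could be tested, and 0 passed in either direction, against 29.0% of all genes tested. That was so in edgeR, DESeq2 and limma-voom, and also at an unadjusted p under 0.05 in edgeR. Sh3gl3, endophilin 3, had too few reads to be tested (0, 0 and 0 in saline, 5, 15 and 16 in DT). It was higher with no filter and on leaving out any saline library or DT library 1 (edgeR adjusted p of 0.00338 to 0.0314). On leaving out a library the filter kept Sh3gl3 through its DT reads alone. Its direction there was thus fixed in advance, and these calls test nothing. Dynamin 2 (Dnm2), the partner that cuts endocytic vesicles free in most cells, had means of 70.5 ± 4.93 CPM (saline) and 68.2 ± 14.3 CPM (DT).

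Among the nuclear receptors, Nr4a1 (Entrez 15370, chromosome 15 from 101253902 to 101274795), also called Nur77, was at 11.2, 16.1 and 41.4 CPM in saline. In DT it was at 86.7, 44.6 and 41.9 CPM. Saline library 3 lay beside DT libraries 2 and 3, and the fitted log2 fold change of 1.34 (SE 0.45) passed narrowly (edgeR adjusted p = 0.0478). The call was lost on leaving out saline library 1, saline library 2 or any DT library, and also with DESeq2, with library size scaling or with no filter (adjusted p of 0.0562 to 0.269), and its range over 16 alternatives was 0.91 to 2.27.

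Nr4a2 (Entrez 18227, chromosome 2 from 57106830 to 57124003), or Nurr1, was at 1.08, 2.50 and 2.39 CPM in saline and 5.25, 3.63 and 3.79 CPM in DT. The groups did not overlap, but the change of 1.09 (SE 0.39) did not pass (edgeR adjusted p = 0.0628). It passed in 4 of 16 alternatives (adjusted p down to 0.0427). Nr4a3 (Entrez 18124, chromosome 4 from 48045078 to 48086447), or Nor1, was the scarcest member, with 0, 17 and 9 reads in saline and 46, 54 and 89 reads in DT. It passed the filter for low counts only through its DT libraries, so that a rise was favoured in advance and its call is a description. The ratio of its summed levels was 8.16, with an exact 95% interval of 5.40 to 12.8 for counting error, and the fitted log2 fold change was 2.99 (SE 0.82). On the log2(RPKM + 1) scale, which understates changes of low genes, it was 0.46. Leaving out saline library 3 or either of DT libraries 2 and 3 ended the call of Nr4a3, with adjusted p of 0.0575 to 0.0834, as did the use of the larger identifier series alone (0.153). That series, by the submitters' sample identifiers, holds all libraries other than saline library 3 and DT library 3. Nr4a1 made up 87.0% ± 6.15 of the summed NR4A RPKM in saline and 86.8% ± 3.56 in DT. The receptor Rxra, with which Nr4a1 and Nr4a2 pair on DNA, fell from 93.6 ± 13.6 to 58.7 ± 10.4 CPM (log2 -0.67, edgeR adjusted p = 0.0164), a call that ended on leaving out saline library 2 (0.0667) or in the larger identifier series alone (0.0509).

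Ier2 (Entrez 15936, chromosome 8 from 84661331 to 84662852), a small nuclear protein encoded by a gene without introns, was at 27.2, 23.5 and 18.3 CPM in saline and 68.1, 56.2 and 29.1 CPM in DT. DT library 3 was just above saline library 1, and the fitted log2 fold change was 1.15 (SE 0.29), a call that ended on leaving out saline library 3 (edgeR adjusted p = 0.0523) or DT library 2 (0.0593). Ier3 (Entrez 15937, chromosome 17 from 35821713 to 35822911), or IEX-1, which affects cell survival under NF-kappaB signals, was the most abundant member per length in saline, at 243 ± 24.0 RPKM. It was at 254, 282 and 309 CPM in saline and 403, 278 and 359 CPM in DT. The groups overlapped, with a fitted log2 fold change of 0.30 (SE 0.16). Ier5, a relative of Ier2 outside the list, had a fitted log2 fold change of 0.95 (edgeR adjusted p = 0.157), and was higher on leaving out saline library 1 (0.0246).

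Srf (Entrez 20807, chromosome 17 from 46546838 to 46558267) was at 9.49, 8.37 and 7.42 CPM in saline and 9.47, 13.6 and 12.3 CPM in DT. DT library 1 lay within the saline range, and the fitted log2 fold change was 0.48 (SE 0.23). Of 17 genes known as SRF targets, 15 of the actin cytoskeleton and the matrix proteins Ccn1 and Ccn2, 15 rose and 1 fell, against 17.2% and 11.9% of all genes, with a median log2 fold change of 1.18. The count that rose was 11 in the larger identifier series alone, and 12 to 15 with a library left out. It was 12 without saline library 2 or DT library 2. The calls that ended were those of Actb, Actg1, Tagln, Vcl and Zyx. Tpm2 (1.66), Tpm1 (2.17), Acta2 (6.34) and Fhl2 (4.09) had the smallest p-values, with edgeR adjusted p of 4.41e-05 to 9.39e-05. Tpm1, a tropomyosin of actin filaments, went from 239.5 ± 43.2 to 1076 ± 201 CPM. The gene that fell, Ccn2 (-0.90), a matrix protein that is also a YAP target, was named after its value was seen, and its call ended in the larger identifier series alone (edgeR adjusted p = 0.104). Acta2 is also a smooth muscle marker: Rgs5 had 0 reads in every library, and Myh11 and Des reached at most 0.953 and 0.201 CPM in any library. Cnn1 (4.17), Myl9 (2.89) and Tagln (1.24), SRF targets of the list that smooth muscle also makes, rose. They were named after their values were seen. The part of smooth muscle cells in the change of Acta2 and of these genes was not tested.

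**Figure D3:**
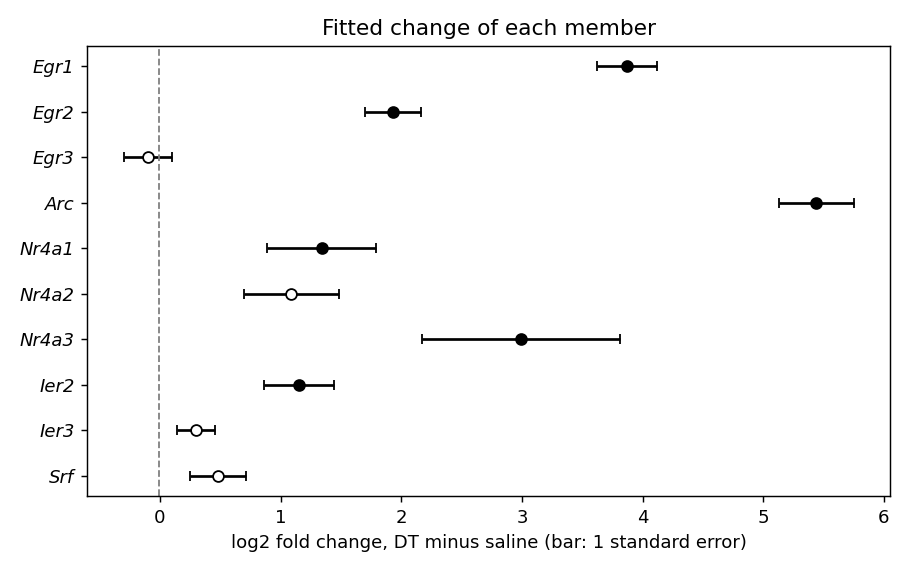
Fitted log2 fold change of each member, DT minus saline, with bars of 1 standard error. Filled points passed the threshold over all genes and open points did not, and the dashed line is the median of all genes tested, at -0.01. Arc at 5.44 and Egr1 at 3.87 lie farthest from the line and Egr3 at -0.10 lies on it.

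Ranked by mean RPKM, the saline order was Ier3, Egr1, Ier2, Egr2, Nr4a1, Egr3, Srf, Nr4a2, Arc and Nr4a3. The levels of Egr2, Nr4a1 and Egr3 in saline overlapped between libraries, at means of 4.59, 4.28 and 3.75 RPKM. In DT the order was Egr1, Ier3, Ier2, Egr2, Arc, Nr4a1, Egr3, Srf, Nr4a2 and Nr4a3. Egr1, at 344 ± 134 RPKM, and Ier3, at 299 ± 49.6 RPKM, overlapped in DT, as did Arc, at 7.78 to 14.6 RPKM, and Nr4a1, at 7.87 to 15.9 RPKM. Neighbours whose libraries also overlapped were Nr4a2 and Arc in saline, and Ier2 and Egr2, and Egr2 and Arc, in DT. Arc moved from the ninth to the fifth place.

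The DT libraries did not rank alike for all members. DT library 2 was the highest of its group for 6 members and DT library 1 for 4, and DT library 3 was the lowest for 6. In saline, library 3 was the highest for 5 members. The sample identifiers of the submitters fall into 2 number series, the smaller holding saline library 3 and DT library 3, and the labels do not say what the series stand for. Within the smaller series Nr4a1 had 41.4 CPM (saline) and 41.9 CPM (DT), while the means of the larger series were 13.6 and 65.6 CPM. Egr2 went from 24.6 to 55.0 CPM in the smaller series and from 16.0 to 81.0 CPM in the larger. The changes of Egr1, from 82.4 to 791 CPM and from 73.7 to 1283 CPM, and of Arc, from 0.695 to 25.1 CPM and from 0.877 to 41.1 CPM, were upward in both. Egr3 stood at 17.8 and 13.5 CPM in the smaller series and at 15.8 and 16.3 CPM in the larger.

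Outside the list, Fos, Fosb and Atf3 were looked at for the same reason after their values were seen. Fos, an AP-1 subunit, had 116 CPM (saline) and 111 CPM (DT) in the smaller series, and 23.1 and 247 CPM in the larger. Fosb was at 9.07 and 7.90 CPM against 1.41 and 20.3 CPM. Atf3, a stress-induced repressor, was at 49.5 and 248 CPM against 14.6 and 306 CPM. With 1 library per group the smaller series allowed no test. Fitted on the larger series alone, 5 members passed: Egr1, Egr2, Arc, Nr4a1 and Ier2.

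**Figure D4:**
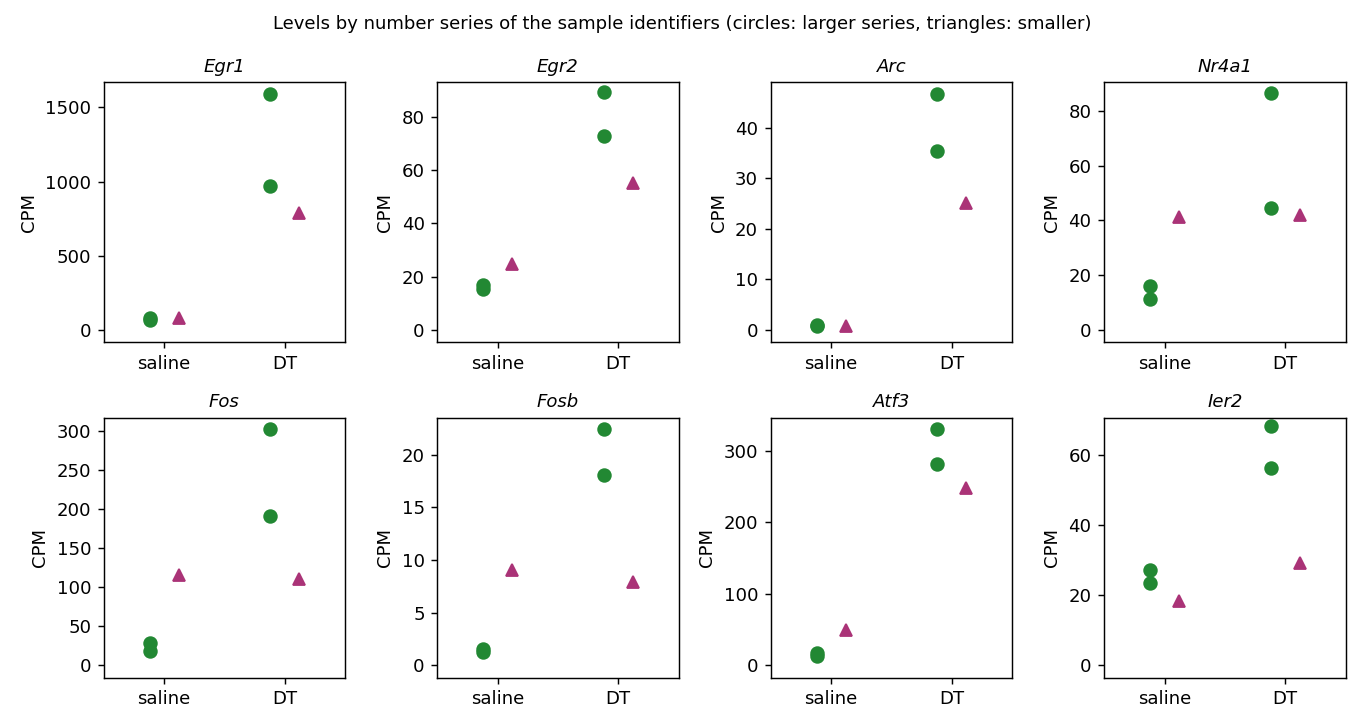
CPM of 8 genes in each library, saline at left and DT at right of each panel, with linear axes that differ between panels. Circles are the larger number series of sample identifiers and triangles the smaller. The triangles of Nr4a1, Fos and Fosb are level between saline and DT, while those of Egr1, Egr2, Arc, Atf3 and Ier2 are higher in DT.

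The known regulators of these genes were described by lists that were put together with earlier results of these data known. Of 12 kinases of the ERK cascade, 0 rose and 2 fell, the RSK kinase Rps6ka2 (from 4.10 ± 2.20 to 1.03 ± 0.364 CPM, edgeR adjusted p = 0.0152) and the CREB and histone kinase Rps6ka5 (-1.51, edgeR adjusted p = 0.0134). The call of Rps6ka5 ended in the larger identifier series alone (0.0532). Araf, at -0.38, did not pass, but was lower on leaving out saline library 1 (edgeR adjusted p = 0.0418) and with the block by identifier pairs (0.0457). Araf was named after these values were seen. The median of the list was -0.09. Mapk3, which encodes ERK1, had means of 85.2 ± 10.4 CPM (saline) and 88.4 ± 16.2 CPM (DT). Of 6 SRF cofactors, 0 rose and Myocd, the coactivator of smooth muscle and heart, fell from 2.84 ± 1.27 to 0.939 ± 0.299 CPM. Leaving out any library other than saline library 1 and DT library 1 ended that call, as did limma-voom, limma on RPKM and the larger identifier series alone. Mrtfb had a fitted log2 fold change of -0.46 and did not pass (edgeR adjusted p = 0.0662), but was lower in 6 of 16 alternatives, with adjusted p of 0.00986 to 0.0477, among them DESeq2 and leaving out DT library 1. It was named after these values were seen. Mrtfa, Elk1, Elk3 and Elk4 had fitted log2 fold changes of 0.10 to 0.50. Of 8 genes of the CREB family and its coactivators, 0 rose and the coactivator Crtc1 fell (-0.95, edgeR adjusted p = 0.0199), a call that ended on leaving out saline library 2 or either of DT libraries 2 and 3, and in the larger identifier series alone. In these 3 lists 0 genes rose by DESeq2 or limma-voom as well, or at an unadjusted p under 0.05 in edgeR. Over all genes tested 17.2% rose and 11.9% fell, so that lists of 6 to 12 genes would hold few of either at those shares. The EGR corepressors Nab1 and Nab2 had log2 fold changes of 0.02 and -0.62 and did not pass, though Nab2 was lower on leaving out DT library 1 (edgeR adjusted p = 0.0179). Levels of mRNA do not measure the activity of kinases.

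Other immediate early genes outside the list rose in 14 of 22 tested cases and fell in 1, against 17.2% and 11.9% of all genes, with a median of 1.23. The count that rose was 11 to 14 over the alternatives, lowest without saline library 2 and in the larger identifier series alone. Fos and Fosb, which rose in the reported fit, did not pass in DESeq2 (adjusted p of 0.0796 and 0.0893). The count that fell became 2 on leaving out saline library 3 or scaling by library size, where the AP-1 subunit Fosl2, at -0.41 in the reported fit, was lower (edgeR adjusted p of 0.0299 and 0.0319). Fosl2 was named after its values were seen. Those with the smallest p-values were Klf10 (log2 2.08), a TGF-beta-induced repressor, Ppp1r15a (2.70), which restores translation after stress, the AP-1 subunit Jun (2.43) and the stress gene Gadd45b (1.85), with edgeR adjusted p of 7.72e-05 to 0.000191. Klf4, which fell (-0.63), was named after its value was seen, and its call ended in the larger identifier series alone (edgeR adjusted p = 0.115). Among 10 tested genes described as EGR1 targets, 5 rose and 1 fell, with a median of 0.39. The genes that rose were the adhesion molecule Icam1 (3.91), tissue factor F3 (2.25), thrombospondin Thbs1 (2.05), the prostaglandin synthase Ptges (0.68) and Cd44 (0.40), and Pdgfa fell (-0.68). The count of 5 became 3 on leaving out any library other than saline library 3 and DT library 1, on scaling by library size, with no filter, with limma on RPKM and in the larger identifier series alone. The calls that ended there were those of Cd44 and Ptges, but those of Cd44 and F3 with no filter. Cd44 also lost its call on leaving out saline library 3, with a mean count of at least 10 and with the block by identifier series. The call of Pdgfa ended on leaving out saline library 2 or DT library 3.

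Of 8 heat shock genes that can rise when tissue is dissociated, Hspa8 (log2 0.77) and Hspe1 (0.81) rose and 0 fell, against 17.2% and 11.9% of all genes, with a median of 0.34, and the count became 3 on leaving out DT library 1 and 1 on leaving out any other library or in the larger identifier series alone. The inducible chaperones Hspa1a and Hspa1b had log2 fold changes of -0.44 and -0.33, and Hspa1a had means of 10.7 ± 5.46 CPM (saline) and 7.91 ± 2.04 CPM (DT). Both are alike in sequence, and reads that did not align uniquely were not counted, so their levels may be understated. The 8 genes summed to 294 to 322 CPM in saline and 410 to 459 CPM in DT, so that the groups did not overlap. Their part in the change of the immediate early genes was not tested.

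**Figure D5:**
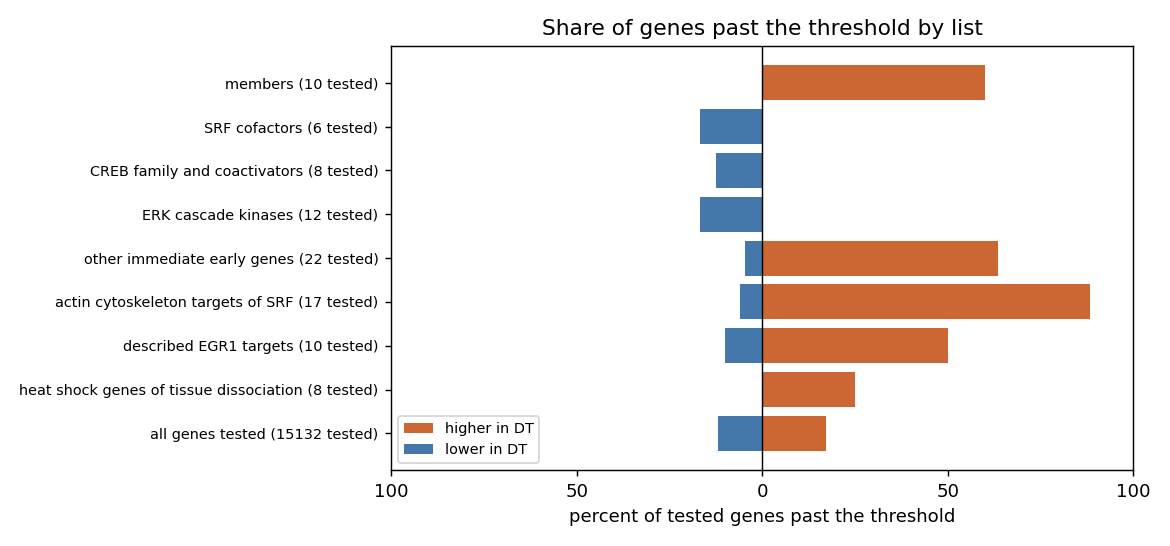
Percent of the tested genes of each list that were higher (orange, to the right) or lower (blue, to the left) in DT at an adjusted p under 0.05, for lists with at least 6 genes tested, with all genes tested at the bottom. The cytoskeletal and matrix targets of SRF reach 15 of 17 higher and the kinases, cofactors and CREB genes have none higher.

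As a gene most like Egr1 across the 6 libraries, Hbegf, an EGF receptor ligand, came first among 10066 genes with a mean of at least 5 CPM. Its centred log2 profile differed from that of Egr1 by a root mean square of 0.321. Ifrd1, a stress-responsive coregulator, followed at 0.322, then Esco2, an acetyltransferase of cohesin, at 0.336, Anln, which acts in cytokinesis, at 0.342, and Nek2, a centrosome kinase, at 0.354. All of these profiles share the difference between the groups, and DT library 2 was the highest in all but that of Nek2.

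Markers of other cells were low beside those of keratinocytes in all libraries. The counts of markers that follow stand against 17.2% of all genes tested that rose and 11.9% that fell, and come from lists of 2 to 8 tested genes. The 8 bulge and basal keratinocyte markers summed to 43669 to 57858 CPM in saline and 46268 to 66929 CPM in DT, most of it Krt15. Of these Krt14 rose (log2 1.78, edgeR adjusted p = 5.16e-05), and the bulge transcription factors Lhx2 (-1.09), Sox9 (-0.71) and Nfatc1 (-0.69) fell, a count of 3 that became 1 on leaving out DT library 2 or 3. The 8 immune markers summed to 150 to 209 CPM and 103 to 126 CPM, with 3 of 7 tested lower and Itgam higher. The 3 became 1 on leaving out saline library 1, saline library 3 or DT library 3 and 0 in the larger identifier series alone, and the call of Itgam ended on leaving out DT library 2. The 6 fibroblast markers summed to 23.5 to 41.3 and 9.47 to 16.9 CPM, with 1 of 2 tested lower, 2 lower with no filter or with a mean count of at least 10, and Lum at 0. The 4 melanocyte markers summed to 13.5 to 27.4 and 7.92 to 10.3 CPM, with 2 of 3 tested lower. The 2 became 1 on leaving out saline library 2 or 3 or DT library 2 or 3, with no filter, with limma-voom, with the block by identifier pairs and in the larger identifier series alone. The 4 endothelial markers summed to 3.01 to 21.8 and 7.64 to 10.8 CPM. The part of these cells in the members' changes was not tested. Libraries held 15300755 to 25558859 reads in genes, and 17405 to 20994 genes were detected.

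By the GENCODE vM21 models, most members had short transcripts along the genome. For each gene 1 coding transcript was taken, the principal one where there was one and otherwise the longest. In 8 of the 10 members it spans 10 kb or less, against 26.3% of 12752 tested genes with a coding model. It has 3 exons or fewer in 6 members, against 13.0%. The exceptions in span were Nr4a1 and Nr4a3, with 8 exons each over 20527 and 41293 bases. By the RefSeq gene coordinates printed above, Nr4a2 and Srf also span more than 10 kb. The pentamer ATTTA is part of AU-rich elements that shorten mRNA life. In their 3′ untranslated regions 8 of the 10 members held at least 1 ATTTA, a share near the 67.9% of tested genes with such a region, at a median of 1.95 per kb against 1.27. Ier3 had the most per length, at 8.16 per kb, followed by Nr4a1 at 5.52. Arc and Ier2, which were both higher in DT, had 0, and Egr3, with 7, was among those that did not pass. The longer form TATTTAT was found in 4 members, Nr4a2, Nr4a3, Ier3 and Srf, and in 29.1% of tested genes. A window of 30 bases with the most pentamers, in capitals, is shown for the members richest in them.
Ier3, bases 166 to 195 of the 3′ untranslated region: ctccgtgtctaattaatATTTAtgtATTTA
Nr4a1, bases 449 to 478 of the 3′ untranslated region: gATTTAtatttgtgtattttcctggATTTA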

How the data were processed

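Polyadenylated RNA of sorted skin cells was sequenced in 6 libraries, 3 from saline and 3 from DT mice, with libraries of a group numbered by accession. Reads were aligned with GSNAP to GRCm38, per the submitters' processing notes; neither the gene annotation nor the use of strand is given in the sources used here. The deposited counts are reads that align uniquely to a gene model, and the deposited RPKM values were adjusted by the authors with a size factor of the library, both per the file headers. Entrez numbers were matched to RefSeq symbols of GRCm38.p6 (31049 of 36528). The 10 members, the gene lists and the rule for named genes were chosen with earlier results of these data known. Counts were tested in edgeR 4.0.16 (R 4.3.3) by its quasi-likelihood test with robust settings and no covariates, TMM scaling and filterByExpr (minimum count 10, minimum total 15), at a Benjamini-Hochberg adjusted p under 0.05 over all 15132 genes kept. "Rose" and "fell" mean past that threshold, and levels are TMM-scaled CPM. The SE is the size of the log2 fold change over the square root of the F statistic. Named genes are the 10 members, all passing genes of lists with at most 12 measured genes, the 4 with the smallest p of longer lists, and the 5 profiles nearest to Egr1, as log2(CPM + 0.5) centred on the mean. Alternatives were DESeq2 1.42.0 and its size factors, library size only, other filters, limma-voom and limma 3.58.1 on log2(RPKM + 1), blocks by sample identifier, the larger identifier series alone and each library left out. The test was tried on simulated counts. Reads of overlapping genes cannot be told apart. Reads that align equally well to genes of like sequence, such as Hspa1a and Hspa1b or Actb and Actg1, are not counted. Some genes of the lists are not reported here.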

Additional observations from a re-analysis of the deposited data

How the results depend on the processing

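Egr1, Egr2 and Arc passed the threshold in all 16 alternatives as well as in the reported fit. With each library left out in turn the number of members that passed, 6 in the reported fit, was 3 to 5, the fewest without DT library 2, where Egr1, Egr2 and Arc remained, and 0 were lower. The median of the members, 1.24, was 0.75 on the log2(RPKM + 1) scale, which compresses low genes, 1.79 in the larger identifier series, and 0.90 to 1.66 with a library left out, lowest without DT library 1 and highest without saline library 3. Of the 160 member values, 142 kept their call, 14 lost it, all of Nr4a1, Nr4a3 and Ier2, and 4 gained it, all of Nr4a2. Egr3 had the other sign in 1 alternative, at 0.04, without passing. With the replicate block by identifier series 6 members passed and with the replicate block by identifier pairs 7, Nr4a2 being added; the labels do not say that identifiers pair libraries. Over all genes 2600 were higher and 1795 lower, and 1097 and 473 in the larger identifier series, with 1564 to 2826 and 996 to 2045 when a library was left out. Of the 91 tested genes of the pathway lists 37 were higher and 8 lower, with 29 to 37 and 4 to 10 when a library was left out, and 2 lower in the larger identifier series. Where fewer libraries enter a fit, fewer calls can follow from that alone. Arc, Nr4a2 and Nr4a3 rest on few saline reads, 16 to 20, 26 to 55 and 0 to 17 a library.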
